A study of Homo sapiens with 6 samples.

Results

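The miRNAs described here are those that map to the imprinted clusters of human chromosomes 14 and 19, in the mature miRNA counts of HEK 293T cells that lack both terminal uridylyltransferases TUT4 and TUT7 (ΔTUT4/7, TENT3A/B double knockout) and of wild type HEK 293T cells. Members were the rows of the count table that start in the DLK1-DIO3 region of chromosome 14 or in the C19MC and miR-371 region of chromosome 19, with a miRNA number below 3000 and without the transposon-derived miR-548 family. The rule used position and name only, and it found 15 of the 1000 miRNAs in the table, 14 on chromosome 14 and 1 on chromosome 19. Each strain had 3 libraries, all labelled as HEK 293T, an immortalized human embryonic kidney line, with no treatment given in the labels. The study obtained HEK 293T cells from a cell collection, while the ΔTUT4/7 cells, a previously made knockout strain, were a gift. It does not say whether the wild type cells are the parent stock of the knockout. Library totals were between 4338558 and 7967606 counts, the highest in wild type replicate 2. The deleted genes themselves are not among the features counted here, which leaves the strain labels unchecked.

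Imprinted genes are transcribed from the copy inherited from one parent only. In the DLK1-DIO3 domain the maternal copy gives long non-coding RNAs, among them MEG3, MEG8 and MEG9, and the miRNA hairpins lie along these transcripts, with the miR-379 to miR-656 hairpins forming one of the largest miRNA clusters of the human genome. These miRNAs are known for their expression in embryo, placenta and brain. The C19MC cluster, found in primates only, is expressed from the paternal copy and mainly in placenta, and the adjacent miR-371 to miR-373 hairpins are known from pluripotent cells. TUT4 and TUT7 add uridines to the 3′ ends of precursor miRNAs, which can mark them for decay or prepare them for DICER.

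All 14 chromosome 14 members lie in the miR-379 to miR-656 stretch, and their start sites span 43.5 kb of hg38. Each comes from 1 arm of its hairpin, 5 from the 5p arm and 9 from the 3p arm. By GENCODE annotation, 4 of them (miR-379-5p, miR-411-5p, miR-323a-3p and miR-494-3p) lie in an intron of MEG8. A further 4 (miR-376c-3p, miR-376a-3p, miR-654-3p and miR-376b-3p) lie outside any annotated host gene on their strand. The remaining 6 lie in MEG9, with miR-382-5p and miR-134-5p in its exons and miR-381-3p, miR-485-3p, miR-409-3p and miR-369-5p in its introns. The chromosome 19 member, miR-517b-3p, lies in an intron of an unnamed annotated gene. All lie on the plus strand, for example miR-379-5p at chr14:101022071-101022091, miR-654-3p at chr14:101040269-101040290, miR-134-5p at chr14:101054694-101054715 and miR-517b-3p at chr19:53721118-53721139. Mature sequences below are from RefSeq (GRCh38.p14), 5′ to 3′, with the seed, bases 2 to 8, in capitals. They are shown for the members that were called, for the miR-376 and miR-379/miR-411 relatives, and for the lone chromosome 19 member.
miR-379-5p: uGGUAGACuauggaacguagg
miR-411-5p: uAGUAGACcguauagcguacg
miR-376a-3p: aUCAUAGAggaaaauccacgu
miR-376b-3p: aUCAUAGAggaaaauccauguu
miR-376c-3p: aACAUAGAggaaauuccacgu
miR-654-3p: uAUGUCUGcugaccaucaccuu
miR-381-3p: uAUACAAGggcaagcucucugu
miR-382-5p: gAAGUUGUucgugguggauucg
miR-134-5p: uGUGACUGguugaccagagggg
miR-517b-3p: aUCGUGCAucccuuuagagugu

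Among the 15 members, miR-376a-3p and miR-376b-3p shared a seed, and no other pair did. These 2 are identical over their first 18 nt and differ first at position 19. The reads had been trimmed to 18 nt, so they cannot tell these 2 miRNAs apart, and their separate counts come from the way the quantification divided shared reads. miR-376c-3p differs from each of them at 2 of the first 18 positions, 1 of these in the seed. miR-379-5p and miR-411-5p differ at 1 seed position and at 6 of the first 18. The sequence of miR-517b-3p is the same as that of miR-517a-3p, which comes from another C19MC hairpin, so its counts belong to either. miR-376a-3p itself is made from 2 hairpins. The median GC content of the members was 45.5%, against 50.0% over all listed miRNAs.

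Detection separated the chromosomes. RefSeq, as far as the table used here goes, places 92 mature miRNA names in the chromosome 14 window, of which 14 (15.2%) were members. In the chromosome 19 window it places 73 names with 62 distinct sequences, of which 1 (1.37%) was a member. The study's miRNA annotation was deduplicated, and how it treated names that share a sequence is not stated. Over all 2370 RefSeq mature names the share listed in the count table was 37.8%. Within chromosome 14, members made up 14 of the 73 names (19.2%) of the miR-379 to miR-656 stretch and 0 of the 19 names of the stretch before it, which holds the hairpins near MEG3 and RTL1. That stretch includes miR-431 and miR-493, the only hairpins of the region on the study's list of group II miRNAs, whose precursors need a nucleotide added before DICER cuts them. Neither was analysed here. None of the 8 names from the miR-371 to miR-373 hairpins was a member. The smallest total of any listed miRNA over the 6 libraries was 10 counts, so a miRNA under that total would not be a member, and nothing is known here of the levels of the other names.

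**Figure D1:**
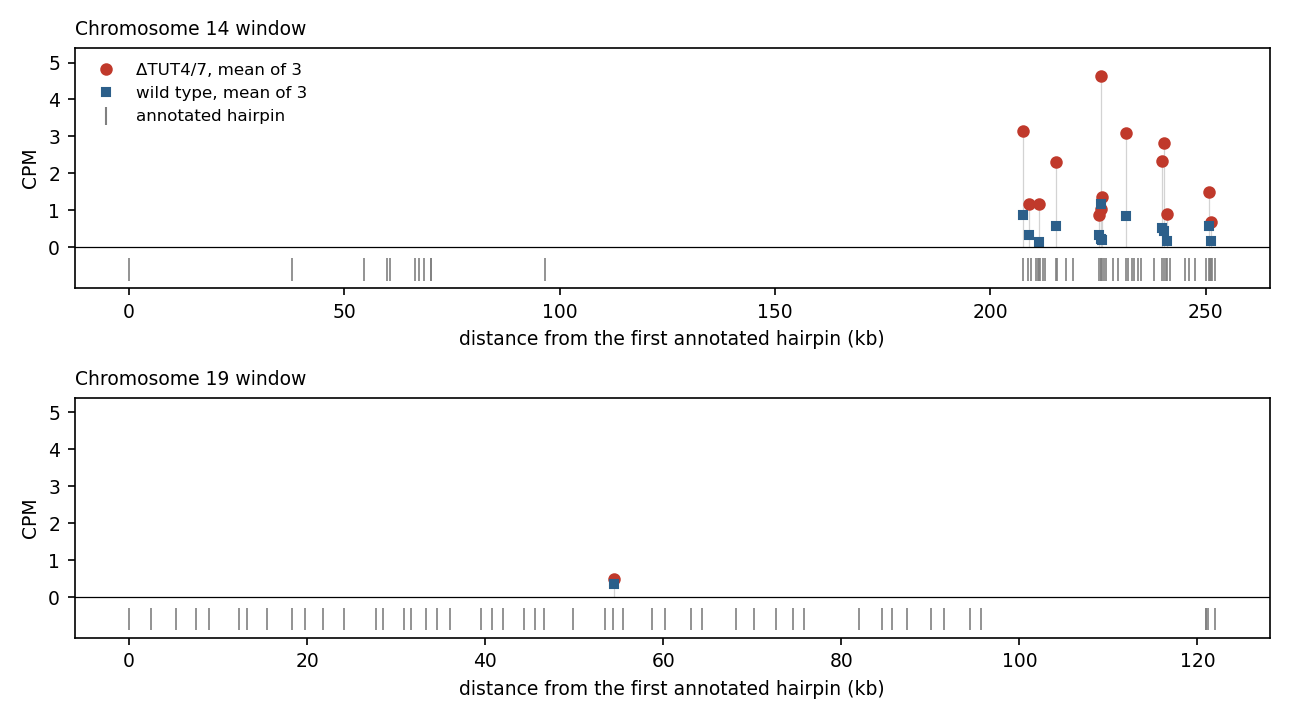
Mean level in CPM (counts scaled to the library total, vertical axis) of each member in ΔTUT4/7 (red circles) and wild type cells (blue squares), mean of 3 libraries each, against the distance in kb from the first annotated hairpin of the window. Grey ticks mark the RefSeq hairpins, and the members on chromosome 14 all sit in the second group of hairpins, while 1 member sits among the hairpins of chromosome 19.

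Members were rare. The median level of the 14 chromosome 14 members was 0.912 CPM, scaled to each library's total, against a median of 4.27 CPM for all listed miRNAs, and 1 count was worth 0.126 to 0.230 CPM depending on the library. On chromosome 14 the counts per library were between 1 and 29 in ΔTUT4/7 cells, with a median of 7, and between 0 and 10 in wild type cells, with a median of 2. All 14 had at least 1 count in each ΔTUT4/7 library. In wild type cells 9, 11 and 12 of the 14 had a count in replicates 1, 2 and 3, although replicate 2 was the deepest library of all. Scaled to the depth of the smallest library, 14, 13.8 and 14 of them would be expected with a count in the ΔTUT4/7 libraries and 8.97, 9.84 and 12 in the wild type libraries. More than 7 counts, the study's limit for testing, were reached by 8, 6 and 6 members in the ΔTUT4/7 libraries and by 0, 3 and 0 in the wild type libraries. Over all listed miRNAs the share with a count differed little between the strains, at 95.6% to 96.7% in ΔTUT4/7 and 93.8% to 95.9% in wild type libraries. The listing limit of 10 counts favoured detection of the members in ΔTUT4/7, since most had wild type totals below it.

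The listed chromosome 14 miRNAs were higher in ΔTUT4/7 cells as a group. Their summed counts were 137, 125 and 132 in ΔTUT4/7 replicates 1, 2 and 3, and 26, 53 and 31 in wild type replicates 1, 2 and 3. As summed CPM these were 27.0, 26.0 and 28.2 in ΔTUT4/7 and 5.89, 6.65 and 7.15 in wild type libraries. The strains did not overlap, and the lowest ΔTUT4/7 library lay above the upper 95% counting limit (exact Clopper-Pearson, 10.1 CPM at most) of every wild type library. The mean was 27.0 ± 1.08 CPM in ΔTUT4/7 and 6.56 ± 0.631 CPM for the wild type (SD, n = 3 per strain), 4.12-fold higher in ΔTUT4/7. The ratio of the pooled rates was 4.11 with a 95% counting interval of 3.32 to 5.12. The sources used here do not say whether molecular identifiers entered the counts, and such intervals cover counting error only. A sum over these miRNAs is given as a description, without a test. Most of them were listed only through their ΔTUT4/7 counts, which favoured the separation of the strains and the size of these ratios. Since CPM is relative to the library total, the scale of the ratio depends on the other miRNAs, and with totals that leave out the let-7 family and miR-98 it was 4.81. In these bulk libraries, fewer cells with a miRNA and less of it per cell cannot be told apart.

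**Figure D2:**
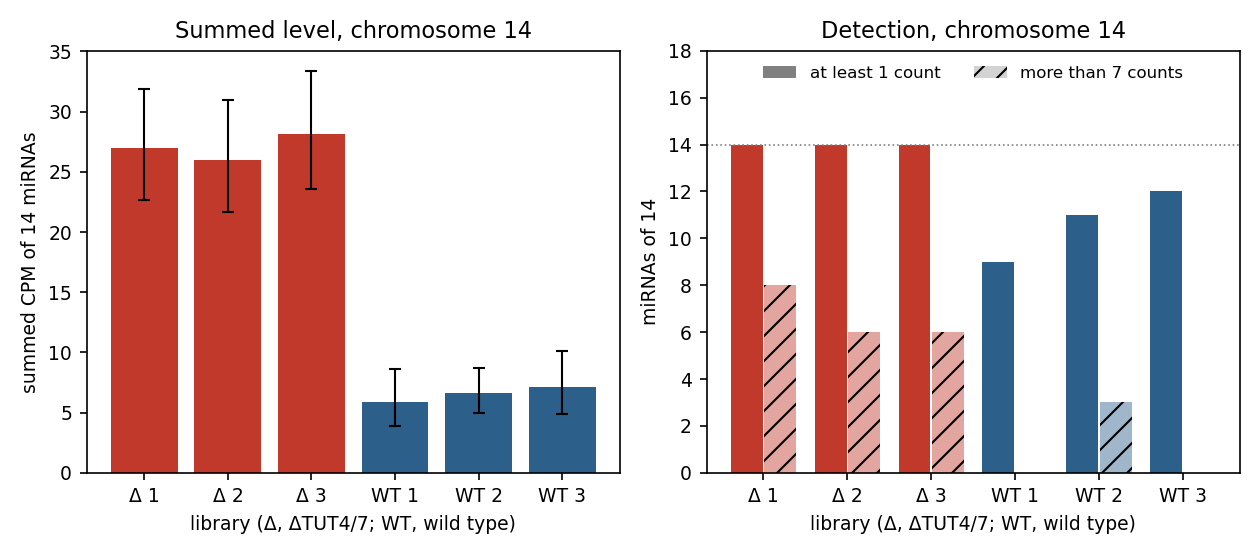
Left, summed CPM of the 14 chromosome 14 members in each library, with exact 95% counting intervals as error bars. Right, the number of the 14 with at least 1 count (solid) and with more than 7 counts (hatched). The ΔTUT4/7 libraries (red) sum to 26.0 to 28.2 CPM and the wild type libraries (blue) to 5.89 to 7.15 CPM.

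Each part of the stretch, divided here by host gene, had a higher sum in ΔTUT4/7. This split was not fixed beforehand. The listing limit favoured higher sums in every part, since each held members listed only through their ΔTUT4/7 counts. The 4 members in the MEG8 intron summed to 7.82 ± 1.40 CPM in ΔTUT4/7 and 1.92 ± 0.976 CPM for the wild type (SD, n = 3 per strain), 4.07-fold. The 4 members between MEG8 and MEG9 summed to 7.90 ± 0.838 and 1.92 ± 0.361 CPM (SD, n = 3 per strain), 4.10-fold, and the 6 members in MEG9 to 11.3 ± 1.64 and 2.72 ± 0.833 CPM (SD, n = 3 per strain), 4.17-fold. The most abundant member, miR-654-3p, did not carry the ratio, which was 4.16 without it. miR-654-3p, miR-379-5p and miR-381-3p were the 3 most abundant members in both strains, in that order, and made up 40.1% of the summed mean in ΔTUT4/7 and 44.1% in wild type cells. The neighbouring levels of miR-379-5p and miR-381-3p did not differ beyond their spread in either strain.

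Taken singly, all 14 had the higher mean in ΔTUT4/7 cells, while 51.6% of all listed miRNAs did. Most members were listed only through their ΔTUT4/7 counts, which favoured this and the counts that follow. The shares over all listed miRNAs are not matched for it, since their median level was 4.27 CPM against 0.912 CPM for the members. For 10 of the 14, all 3 ΔTUT4/7 libraries lay above all 3 wild type libraries, a separation found for 26.6% of all listed miRNAs. The other 4, named after their values were seen, were miR-494-3p, miR-376c-3p, miR-485-3p and miR-369-5p. The ratios of pooled rates ran from 2.13 for miR-376c-3p to 9.75 for miR-323a-3p, with a median of 4.17. For 12 of the 14 the 95% counting interval lay above 1, as it did for 34.5% of all listed miRNAs and 28.4% of those with a mean under 10 CPM. The exceptions were miR-376c-3p (0.790 to 6.31) and miR-369-5p (0.827 to 12.5). Replicates differed by more than counting noise over all miRNAs, which these intervals leave out. The intervals of all 14 included the ratio of the whole group, so at these counts the members could not be ranked by their change.

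**Figure D3:**
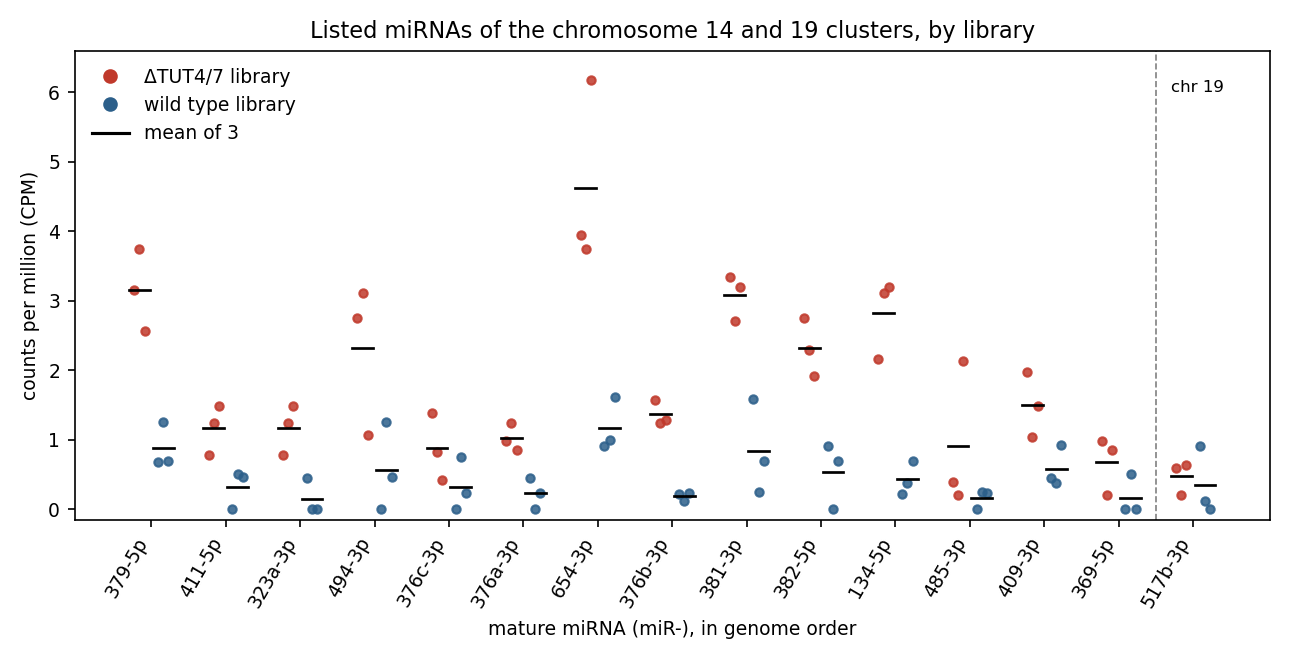
Level of each member in CPM (vertical axis) in each of the 3 ΔTUT4/7 (red) and 3 wild type (blue) libraries, with the mean as a black bar, in genome order. For 10 of the 14 chromosome 14 members the red points all lie above the blue points, and for miR-517b-3p on chromosome 19 they overlap.

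The edgeR quasi-likelihood test, fitted on the 826 miRNAs with more than 7 counts in at least 1 library, covered 9 of the 14. A miRNA was called at a change of at least 2-fold with a Benjamini-Hochberg adjusted p under 0.05 over all 826. Of the 9 tested, 6 were increased and 0 decreased, where 16.5% of all tested miRNAs were increased and 13.6% decreased. Among tested miRNAs with a mean under 10 CPM, 18.6% were increased. That range reaches well above the members, whose highest mean over all libraries was 2.90 CPM. DESeq2 also called 6 of the 9 members increased and 0 decreased, and no member was lower at an unadjusted p under 0.05 in edgeR. This count has to be read with the limit of 7 counts in mind, since 6 of the 9 passed it only in ΔTUT4/7 libraries and so had to be higher there. The 3 that passed it in both strains were miR-654-3p, miR-379-5p and miR-494-3p, and the first and the second of these were called. With library totals free of let-7 and miR-98, the middle log2 fold change over the 826 shifted from 0.013 to 0.234, and 183 were increased and 81 decreased instead of 136 and 112. Of the 9 members, 8 were then increased, with miR-494-3p and miR-409-3p added. The log2 fold changes of the 9 were 1.42 to 2.77, with a median of 2.01 beside 0.013 over all 826.

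miR-654-3p had 3.94, 3.74 and 6.19 CPM in ΔTUT4/7 replicates 1, 2 and 3 and 0.907, 1.00 and 1.61 CPM in wild type replicates 1, 2 and 3. Each ΔTUT4/7 library stood well above each wild type library. The log2 fold change was 1.98 (SE 0.40, adjusted p = 0.00175 by edgeR). miR-134-5p, described in neurons as a regulator of dendritic spine size, had 2.17, 3.12 and 3.20 CPM against 0.227, 0.377 and 0.691 CPM, or 11, 15 and 15 counts against 1, 3 and 3. The strains were apart, and the log2 fold change was 2.68 (SE 0.53, adjusted p = 0.00162 by edgeR). miR-379-5p, from the first hairpin of the stretch, had 3.15, 3.74 and 2.56 CPM in the ΔTUT4/7 replicates, in order, against 0.680, 1.26 and 0.691 CPM in the wild type. Its log2 fold change was 1.73 (SE 0.43, adjusted p = 0.00611 by edgeR). The calls of miR-654-3p, miR-134-5p and miR-379-5p held with each of the 6 libraries left out in turn.

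The calls of the other 3 increased members depended more on single libraries. miR-381-3p had 3.35, 2.70 and 3.20 CPM in ΔTUT4/7 replicates and 1.59, 0.251 and 0.691 CPM in wild type replicates 1, 2 and 3, so the wild type libraries ranged more widely than the ΔTUT4/7 ones. Its log2 fold change, 2.01 (SE 0.55, adjusted p = 0.0102 by edgeR), was 1.41 without wild type replicate 2, where the call was lost (edgeR adjusted p = 0.0513), and 2.82 without wild type replicate 1. miR-382-5p had 2.76, 2.29 and 1.92 CPM in the ΔTUT4/7 replicates, in order, against 0.907, 0 and 0.691 CPM in the wild type, with no count in the deepest library. Its log2 fold change, 2.34 (SE 0.73, adjusted p = 0.0203 by edgeR), was 3.07 without wild type replicate 1 and 1.51 without wild type replicate 2, and it was not called in the latter fit (edgeR adjusted p = 0.0596) or without ΔTUT4/7 replicate 1 (edgeR adjusted p = 0.0619). miR-376b-3p had 8, 6 and 6 counts in the ΔTUT4/7 and 1 in each wild type library, a pooled rate ratio of 7.65 with a 95% counting interval of 2.27 to 40.2. Its log2 fold change was 2.77 (SE 0.71, adjusted p = 0.00733 by edgeR), and leaving out ΔTUT4/7 replicate 1 took it out of the test, as its other counts were 6 or lower.

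The miR-376 hairpins are known as sites of adenosine-to-inosine editing in brain. Because miR-376a-3p and miR-376b-3p cannot be told apart in these reads, their sum is the firmer value. Together they had 2.40 ± 0.231 CPM in ΔTUT4/7 and 0.422 ± 0.279 CPM for the wild type (SD, n = 3 per strain). The ratio of their pooled rates was 6.69 with a 95% counting interval of 2.79 to 19.5. Fitted as 1 miRNA, with all listed miRNAs that share their first 18 nt summed, their log2 fold change was 2.62 (edgeR adjusted p = 0.00391). miR-376c-3p, which the trimmed reads can tell from them, had 7, 4 and 2 counts against 0, 6 and 1, and its libraries overlapped between the strains.

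Of the 9 tested members, 3 were not called, named here after their values were seen. miR-494-3p had 2.76, 3.12 and 1.07 CPM in the ΔTUT4/7 replicates, in order, against 0, 1.26 and 0.461 CPM in the wild type. ΔTUT4/7 replicate 3 fell below wild type replicate 2, and the log2 fold change was 1.74 (SE 0.70, adjusted p = 0.0615 by edgeR). It was called without ΔTUT4/7 replicate 3 (2.06, edgeR adjusted p = 0.0339) and without wild type replicate 2 (3.20, edgeR adjusted p = 0.0273). miR-409-3p had 1.97, 1.04 and 1.49 CPM against 0.453, 0.377 and 0.922 CPM, and its log2 fold change was 1.42 (SE 0.60, adjusted p = 0.0750 by edgeR). miR-485-3p had 10 counts in ΔTUT4/7 replicate 3 and 2 and 1 in replicates 1 and 2, against 0, 2 and 1 in wild type cells, so its log2 fold change of 2.20 had the largest standard error of the tested members, 1.09 (edgeR adjusted p = 0.115).

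The 5 untested chromosome 14 members, with at most 7 counts in any library, were miR-411-5p, miR-323a-3p, miR-376c-3p, miR-376a-3p and miR-369-5p. Their sum was 4.94 ± 0.169 CPM in ΔTUT4/7 and 1.20 ± 0.487 CPM for the wild type (SD, n = 3 per strain), 4.14-fold. The ΔTUT4/7 libraries ranged from 4.78 to 5.12 CPM and the wild type libraries from 0.907 to 1.76 CPM. Their wild type totals, 6, 2, 7, 3 and 4 counts in the order named, were under the listing limit of 10. All 5 were thus listed only through their ΔTUT4/7 counts, so a ratio near the 4.12 of the whole group adds no support to it. miR-323a-3p had 4, 6 and 7 counts in ΔTUT4/7 and 2, 0 and 0 in wild type libraries, a pooled rate ratio of 9.75 with a 95% counting interval of 2.31 to 87.0. With no filter on low counts, when all 1000 miRNAs were fitted, it was the only 1 of the 5 to be called, with a log2 fold change of 3.02 (edgeR adjusted p = 0.0262). In that fit 7 of the 14 were increased, where 14.5% of all miRNAs were.

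**Figure D4:**
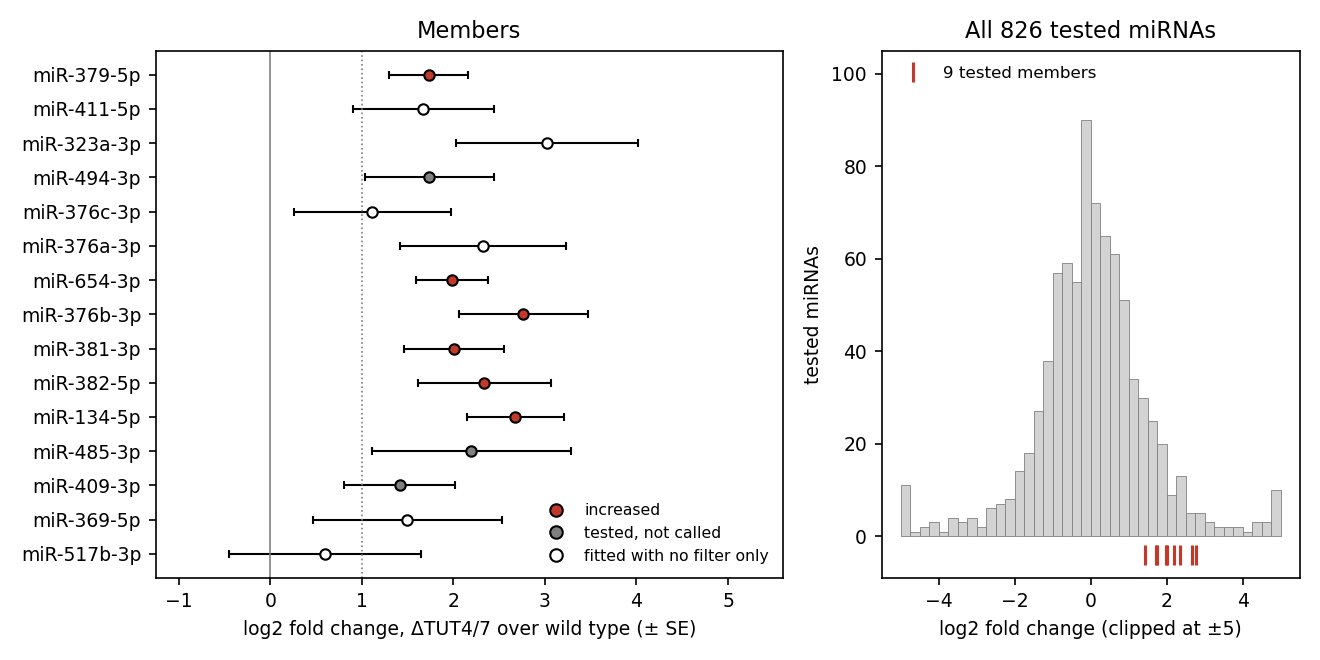
Left, log2 fold change (ΔTUT4/7 over wild type) of each member with its standard error, from the edgeR fit of 826 miRNAs (red, increased, grey, tested and not called) or, for untested members, from the fit with no filter (white). Right, the distribution over all 826 tested miRNAs, with the 9 tested members as red ticks between 1.42 and 2.77.

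The chromosome 19 member gave no difference beyond counting error. miR-517b-3p had 3, 1 and 3 counts in ΔTUT4/7 replicates 1, 2 and 3 and 4, 1 and 0 in wild type replicates 1, 2 and 3. The strains overlapped, with the highest level, 0.907 CPM, in wild type replicate 1. The mean was 0.480 ± 0.237 CPM in ΔTUT4/7 and 0.344 ± 0.491 CPM for the wild type (SD, n = 3 per strain). The ratio of pooled rates was 1.61 with a 95% counting interval of 0.439 to 6.42, so neither an equal level nor the ratio of the chromosome 14 group was outside what 12 counts allow. It was not tested at the limit of 7 counts, and with no filter its log2 fold change was 0.60 (edgeR adjusted p = 0.697). The ratio of the strain means, 1.39, was 7.64 without wild type replicate 1 and turned to 0.93 without wild type replicate 3, so 1 library decided it. Summed over members, the chromosome 14 cluster had 27.0 CPM to 0.480 CPM of the chromosome 19 cluster in ΔTUT4/7 cells, and 6.56 to 0.344 CPM in wild type cells.

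Outside the window used to choose members, the nearest listed miRNAs on chromosome 14 were looked up after the values of the members had been seen. miR-1247 lies 494.7 kb past the last member, near DIO3. Its 5p arm had 26, 30 and 60 counts in ΔTUT4/7 and 8, 31 and 10 in wild type libraries, or 8.05 ± 4.15 and 2.67 ± 1.09 CPM (SD, n = 3 per strain), and was increased with a log2 fold change of 1.51 (edgeR adjusted p = 0.0104). Its 3p arm had a log2 fold change of 0.89 (edgeR adjusted p = 0.164) and was not called. On the other side, 714.2 kb before the first member, miR-345-3p was higher in each ΔTUT4/7 library than in each wild type library, with a log2 fold change of 0.88 (edgeR adjusted p = 0.00610), under the 2-fold limit. The value for miR-345-5p was 0.16 (edgeR adjusted p = 0.371). Whether these neighbours differ from the members in their change was not tested.

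Levels of some markers of other cell types also differed between the strains. Of 15 miRNA names fixed as markers of blood, liver, striated muscle, neurons and pluripotent stem cells, 6 were listed, as 8 mature miRNAs with a summed level of 40.5 to 47.3 CPM in ΔTUT4/7 and 58.5 to 109 CPM in wild type libraries. Most of this was miR-142-3p, a blood cell miRNA, at 30.9 to 36.3 and 49.4 to 96.3 CPM. The muscle miRNA miR-133b differed the other way, at 4.91 to 5.72 CPM in ΔTUT4/7 and 1.59 to 3.23 CPM in wild type libraries. Its log2 fold change was 1.11 (edgeR adjusted p = 0.0153). The liver miRNA miR-122-5p was lower in ΔTUT4/7, at 0.208 to 0.788 CPM against 1.13 to 1.76 CPM, with a log2 fold change of -1.63 (edgeR adjusted p = 0.0491). The neuronal miR-124 was not analysed here, and of the pluripotent markers miR-302a-5p had at most 1.18 CPM. The share of counts taken by miR-16-5p also differed, at 17.5% to 17.8% in ΔTUT4/7 and 23.5% to 28.0% in wild type libraries. The part of these differences in the chromosome 14 result was not tested. The ΔTUT4/7 cells are a single strain, so loss of TUT4/7 and any other difference between the strains cannot be told apart.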

How the data were processed

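The authors prepared small RNA libraries (QIAseq miRNA Library Kit) from 3 biological replicates each of ΔTUT4/7 and wild type HEK 293T cells. Reads had been cut to 18 nt, mapped with Bowtie 1.0.0 (hg38) and assigned to deduplicated miRBase 22 mature miRNAs in Partek 10.0.22. The deposited table holds estimated counts from expectation-maximization, written as whole numbers and used as such, with 1 row (miR-16-5p) written to 3 significant digits in wild type libraries. The authors' own comparison, which holds p-values and fold changes, was not used.

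Libraries were assigned to strains from their labels. Counts were scaled to CPM of the library total and tested with edgeR 4.0.16 in R 4.3.3 (estimateDisp, glmQLFit, glmQLFTest, normalization factors of 1), with Benjamini-Hochberg adjustment over all 826 tested miRNAs. The standard error is the log2 fold change over the square root of F. The replicates are labelled as biological ones, and replicate pairs differed by more than counting noise (chi-square per degree of freedom 13.3 to 293.2). The calling was tested on simulated counts with a common dispersion (0.0358) for all miRNAs. That simulation did not check the calling separately at counts as low as those of the members. Mature sequences of 897 of the 1000 miRNAs matched RefSeq by name, all 897 with the sequence read from hg38. Hosts are from GENCODE 44.

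The members, lists and rules were chosen with earlier results of these data known. The rule for named miRNAs took the 6 most abundant and every called member of each cluster, and arms of miR-431, miR-493 and miR-371 to miR-373, none of which was a member. Others are named where stated. Alternatives were TMM and RLE factors, DESeq2 1.42.0, library totals free of let-7 and miR-98, no filter, filterByExpr, a replicate block, each library left out, sums over shared first 18 nt, a 2-fold limit alone and other limits for detection. Removal of a GC trend (lowess, span 0.5) and a sum without the most abundant member were added after seeing the data.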

Additional observations from a re-analysis of the deposited data

How the results depend on the processing

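In the 16 other settings of the fit, 0 chromosome 14 or 19 members were decreased, and the lowest log2 fold change of the 9 members tested in the report was 1.10. The count of 6 increased members became 4 with filterByExpr, which left 4 members to test, and 9 with the 2-fold limit alone. It was 4 to 7 with each library left out, and lowest without ΔTUT4/7 replicate 1, when 7 members were tested. It was 7 with TMM factors, 7 after removal of the GC trend and 8 when library totals left out let-7 and miR-98. With the replicate block it was also 7, since miR-494-3p was then called. Same-numbered libraries did not deviate together (correlations -0.108, -0.119 and -0.129), but deviations from strain means of so few libraries are a weak check. The labels give no link between them beyond the number. Of 126 single values in other settings, 116 kept their side of the threshold, 3 lost the call and 7 gained it. Members that dropped out of a test are not among these values. The called miR-376b-3p and miR-382-5p dropped out with filterByExpr, and miR-376b-3p also without ΔTUT4/7 replicate 1. The summed chromosome 14 ratio was 4.81 on those totals and 3.92 to 4.31 with each library left out. The chromosome 19 ratio was 0.93 to 7.64 with each library left out. Members with more than 7 counts averaged 6.67 per ΔTUT4/7 and 1.00 per wild type library, against 14 and 10.7 with at least 1 count, and 13.9 ΔTUT4/7 members were expected at the smallest depth. Single counts limit the rarest members.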
